A study of Mus musculus with 4 samples.

Results

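Collagens, laminins and nidogens are the structural proteins of basement membranes and connective tissue, and 55 of their genes were followed here in mouse brain at embryonic day 13. The genes were chosen by name and biotype alone, as every protein-coding gene named as a numbered collagen chain, as a laminin alpha, beta or gamma chain, or as a nidogen, and listed in both deposited tables. They are 42 collagen chains, 11 laminin chains and 2 nidogens among 19500 genes listed in both tables. Col6a6 was listed in the table of the samples numbered 1 only, with 1 count in Wt1_flfl and 3 in Wt1_CKO, and was left out. Poly(A) RNA was sequenced from control brains, labelled WT and carrying Wt1 fl/fl (group Wt1_flfl), and from brains labelled Wt1CKO, a conditional knockout of Wt1 (group Wt1_CKO), all of C57BL/6 background, with 2 samples of each numbered 1 and 2. The first table holds the 2 samples numbered 1 and the second table the 2 samples numbered 2. The labels name neither the Cre line nor the part of the brain, and do not say whether a sample is 1 animal or a pool, so the spread between samples may be technical in part. Values of the replicates 1 and 2 of a group are given in that order throughout.

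Collagen chains fold in groups of 3 into a triple helix. Fibrillar collagens form the fibres of mesenchyme such as the meninges, the skin and the skull, while collagen IV forms the sheet of every basement membrane, and laminins, trimers of an alpha, a beta and a gamma chain, form a second sheet that nidogens join to collagen IV. In the embryonic brain such membranes lie under the pia, where radial glial endfeet attach, and around the vessels. Meningeal fibroblasts, endothelium, pericytes and the neuroepithelium can all make some of these chains, so a level in whole brain RNA is a sum over cell types.

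The chains of collagen IV are encoded in pairs of genes that start next to each other and run in opposite directions, so a short stretch of DNA lies at the start of both. In the deposited positions, which are on GRCm38, Col4a1 (ENSMUSG00000031502, chromosome 8, 11198423 to 11312826, minus strand) and Col4a2 (ENSMUSG00000031503, chromosome 8, 11312805 to 11449287, plus strand) overlap by 22 bases at their 5′ ends. Col4a4 and Col4a3 on chromosome 1 lie 71 bases apart, and Col4a6 and Col4a5 on the X chromosome 1308 bases apart. Where strand is not kept, reads in the stretch shared by Col4a1 and Col4a2 cannot be given to one gene, but it is a small part of either transcript. The shared or intervening stretches are shown to make this arrangement visible, 5′ to 3′ on the minus strand (chr8:11312805-11312826 and chr1:82586850-82586920), from the RefSeq promoter table (GRCm38.p6). Capitals mark 3 motifs searched on either strand: the GC box GGGCGG; the CAAT box, spelled CCAAT; and the TATA box, spelled TATAAA.
Col4a1 and Col4a2, shared: ttggagacgCCGCCCgcgcact
Col4a4 and Col4a3, between: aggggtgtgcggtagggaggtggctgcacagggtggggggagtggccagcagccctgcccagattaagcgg

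The fibrillar genes Col1a2 and Col3a1 are shown because, of the members with a mean of 10 CPM or more, they had the lowest differences of Wt1_CKO from Wt1_flfl in the second table. No window for Col1a1 was among the RefSeq promoter windows found, so its stretch is not shown. Each stretch is the 250 bases before the RefSeq start on the plus strand, at chr6:4505368-4505617 for Col1a2 and chr1:45311288-45311537 for Col3a1, with the same motifs in capitals. The deposited start of Col1a2, at 4504814, lies further upstream, so this window is within the deposited gene.
Col1a2: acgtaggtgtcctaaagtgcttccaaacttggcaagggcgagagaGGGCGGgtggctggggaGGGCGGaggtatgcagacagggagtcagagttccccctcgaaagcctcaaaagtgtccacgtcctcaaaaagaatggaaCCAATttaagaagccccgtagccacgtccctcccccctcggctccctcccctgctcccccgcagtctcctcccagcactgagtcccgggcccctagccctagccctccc
Col3a1: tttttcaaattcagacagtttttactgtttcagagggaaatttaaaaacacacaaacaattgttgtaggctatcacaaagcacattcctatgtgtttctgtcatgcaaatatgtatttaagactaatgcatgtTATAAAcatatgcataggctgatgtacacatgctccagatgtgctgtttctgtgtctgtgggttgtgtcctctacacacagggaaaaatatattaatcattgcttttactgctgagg

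The Col1a2 stretch held GGGCGG, a GC box, at 2 places and CCAAT once, with the first base of CCAAT 109 bases before the start. The Col3a1 stretch held TATAAA with its first base 117 bases before the start and neither of the other motifs. RefSeq promoter windows of 300 bases were found for 39 of the 55 genes (43 windows). GGGCGG on either strand was in 60.5% of these windows and in 35.7% of all 32851 windows of the table. CCAAT was in 34.9% against 37.4%, and TATAAA in 9.3% against 13.6%. These are counts of letters, and they were not tied to the expression values.

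The 4 libraries held 16219310 to 17704698 counts each, and the 55 genes took 0.0905% (Wilson 95% interval 0.089% to 0.092%) and 0.112% (0.11% to 0.114%) of the counts of the Wt1_flfl libraries. They took 0.0936% (0.0922% to 0.095%) and 0.102% (0.1% to 0.103%) of those of the Wt1_CKO libraries. The intervals cover counting error only. The share was highest in Wt1_flfl replicate 2 and lowest in Wt1_flfl replicate 1, so the genotypes overlapped. Counts were scaled to a library of 1000000 with TMM factors (CPM), and levels of different genes were compared per kilobase of exon, since a long transcript gives more reads.

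Per kilobase the most abundant members were Col4a1 with a mean of 17.7 CPM per kilobase over the 4 libraries, Col2a1 with 15.9, Col4a2 with 15.3, Lamb2 with 10.9, Col18a1 with 10.4, Col9a3 with 7.31 and Lamc1 with 5.84. Collagen IV, multiplexin and laminin chains of basement membranes were thus among the leading transcripts, as were Col2a1 and Col9a3, chains best known from cartilage. The classic interstitial chains were lower, with 1.30 CPM per kilobase for Col3a1, 1.21 for Col1a1 and 0.918 for Col1a2. For Col1a2 the exon length used was 12426 bases, against 6563 for Col1a1, so its level depends on that length. At the other end, 13 of the 55 genes had a mean below 1 CPM: Col4a3, Col5a3, Col6a3, Col6a4, Col8a1, Col8a2, Col13a1, Col17a1, Col19a1, Col24a1, Col28a1, Lama3 and Lamb3.

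**Figure D1:**
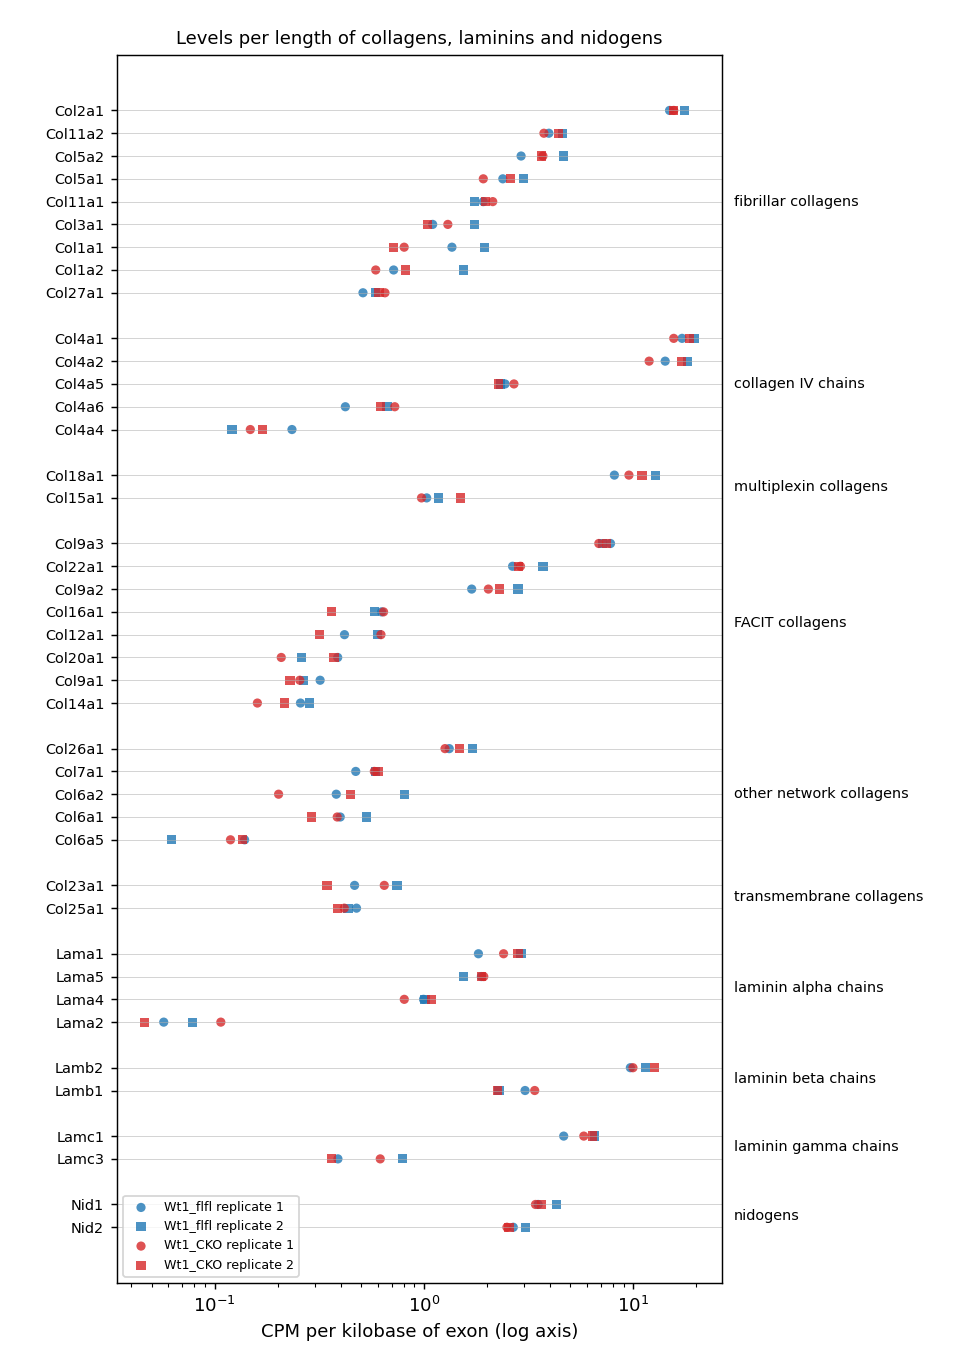
Level in CPM per kilobase of exon (horizontal log axis) of all but 1 of the collagen, laminin and nidogen genes whose mean reached 1 CPM, grouped by role, with 1 point per library (blue Wt1_flfl, red Wt1_CKO, circles replicate 1, squares replicate 2). Col4a1, Col2a1, Col4a2, Lamb2 and Col18a1 stand highest, and blue and red points overlap for most genes. Red lies below blue for Col1a1, Col6a1, Col9a1, Col14a1, Col25a1 and Nid2, and above it for Col11a1 and Col27a1.

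The genotype comparison asked which of these genes differed between Wt1_CKO and Wt1_flfl brain. Of the 55 genes, 47 passed the filter on low counts, and 0 of them passed an adjusted p of 0.05 in edgeR's quasi-likelihood test, where 0.00628% of all 15933 genes tested did. Only Col1a1, 1 of the 47, had an unadjusted edgeR p under 0.05, which 1.56% of all genes tested had in either direction and 0.967% in its direction, lower in Wt1_CKO. DESeq2 also called 0 of them, with 1 at an unadjusted p under 0.05. An adjusted p that misses the threshold does not show that the levels were the same. Both Wt1_CKO libraries lay below both Wt1_flfl libraries for 6 of the 47 (12.8%), Col1a1, Col6a1, Col9a1, Col14a1, Col25a1 and Nid2, beside 13.5% of all genes tested. They lay above for 3 (6.38%), Col5a3, Col11a1 and Col27a1, beside 13.4%. The median log2 difference between genotypes was -0.10 over the 47 genes and 0.01 over all genes tested.

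Of the 10 fibrillar collagens tested, Col1a1 was lower in both Wt1_CKO libraries, 3 were higher in both and 6 overlapped, with a median log2 difference of -0.07. The shares over all genes tested were 13.5% lower and 13.4% higher. Col1a1 (ENSMUSG00000001506, chromosome 11, 94936224 to 94953042), the main chain of collagen I, had 8.9 and 12.8 CPM in the Wt1_flfl libraries and 5.28 and 4.7 CPM in the Wt1_CKO libraries, from 143, 219, 94 and 81 counts. Both Wt1_CKO libraries were thus below both Wt1_flfl libraries, with means of 4.99 ± 0.41 CPM against 10.8 ± 2.75 CPM (SD, n = 2 each). This is a log2 difference of -1.08 (SE 0.27), at an unadjusted p of 0.00407 and an adjusted p of 1 in edgeR's test. The adjusted p was 0.0677 without Wt1_flfl replicate 1 and at least 0.999 without each of the other libraries. In each table the ratio of Wt1_CKO to Wt1_flfl was below 1 beyond counting error, at 0.593 in the first table (95% counting interval 0.452 to 0.775) and 0.368 in the second table (0.281 to 0.476), which compares those libraries and not the genotypes.

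The partner and companion chains of Col1a1 differed mainly in the second table. Col1a2, the second chain of collagen I, had 8.9 and 19.3 CPM in Wt1_flfl and 7.3 and 10.2 CPM in Wt1_CKO, so the groups overlapped. Col3a1, which forms fibres with collagen I in soft tissue and vessel walls, had 10.8 and 17.2 CPM in Wt1_flfl and 12.7 and 10.2 CPM in Wt1_CKO. Wt1_flfl replicate 2 was the highest library for both. The log2 difference within the first table was -0.28 for Col1a2 and 0.23 for Col3a1, and within the second table it was -0.92 and -0.75.

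Collagen V chains start collagen fibrils and limit their width. Col5a2 had 27.9 and 44.3 CPM in Wt1_flfl and 35.5 and 34.9 CPM in Wt1_CKO, with the 2 Wt1_flfl libraries as the lowest and the highest. Col5a1 had 20.2 and 25.5 CPM in Wt1_flfl and 16.3 and 21.9 CPM in Wt1_CKO, lower in Wt1_CKO within each table but overlapping between groups. Col1a2, Col3a1 and Col5a1 fell outside the rule for named genes and were chosen after their values were seen.

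**Figure D2:**
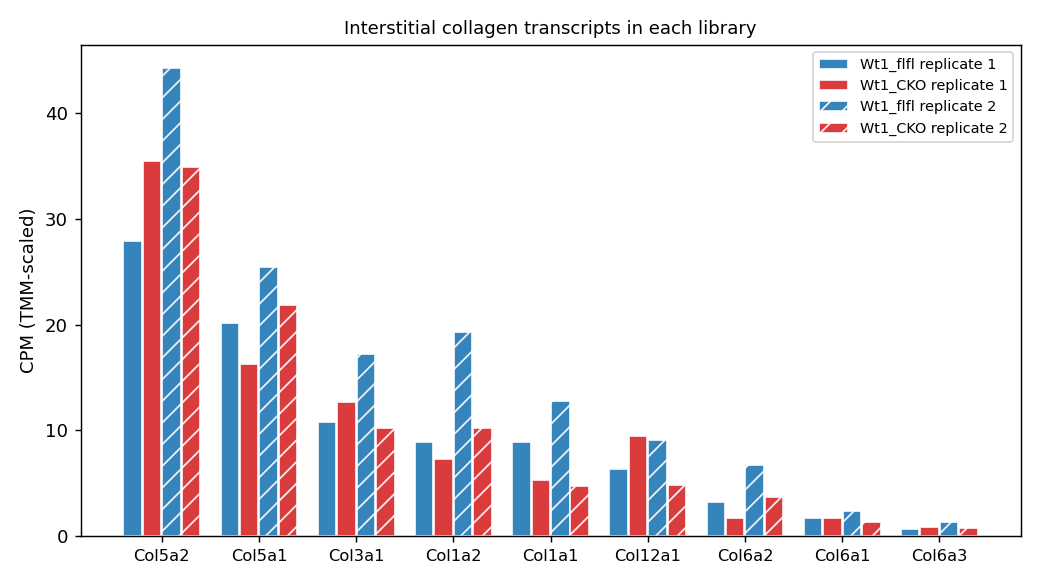
CPM (vertical axis from 0, TMM-scaled) of 9 interstitial collagen genes in each library, with 1 bar per library (blue Wt1_flfl, red Wt1_CKO, plain replicate 1, hatched replicate 2). Wt1_flfl replicate 2 is the highest bar for 8 of the genes and Wt1_CKO replicate 1 for Col12a1, and only for Col1a1 and Col6a1 are both red bars below both blue bars.

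Summed over the 9 genes of that plot, which were chosen after their values were seen, interstitial collagen transcripts reached 88.7 and 139 CPM in the Wt1_flfl libraries and 90.9 and 92.4 CPM in the Wt1_CKO libraries. Wt1_flfl replicate 2 stood above the other 3 libraries, which were close to each other. In bulk RNA, fewer cells of a type and less RNA per cell cannot be told apart. Of 20 markers of meninges and mesenchyme, 19 were listed in both tables, but Nnat and Zic1, which neural cells of the brain also express, made up most of their sum and were the only 2 of the list at an unadjusted edgeR p under 0.05, with log2 differences of -0.30 and -0.39 and an adjusted p of 1 each. Without those 2 genes the marker sum was 165 and 221 CPM in Wt1_flfl and 156 and 199 CPM in Wt1_CKO, highest in the same library as the collagens. The patterns otherwise differed. In Wt1_CKO replicate 2 the marker sum stood well above both samples numbered 1, while the collagen sum, at 92.4 CPM, was close to theirs. Foxc1, a transcription factor of the meninges, had 2.74 and 5.84 CPM in Wt1_flfl and 2.58 and 3.54 CPM in Wt1_CKO. Foxd1, another forkhead factor, had 0.56 and 5.66 CPM in Wt1_flfl and 0.562 and 1.28 CPM in Wt1_CKO. Some rare markers of the list were highest in other libraries. Tbx18 had 0.124 and 0.701 CPM in Wt1_flfl and 1.91 and 0.464 CPM in Wt1_CKO. Twist1 and Gjb2 were highest in Wt1_CKO replicate 2, at 1.22 and 1.33 CPM. The more abundant markers overlapped between genotypes, with 42.2 to 50.5 CPM for Cdh11, 37.9 to 66.6 for Igf2, 14.7 to 42.8 for Crabp2, 19.4 to 25 for Cxcl12 and 16.8 to 19.9 for Prrx1. Cdh11, Igf2 and Prrx1 were highest in Wt1_flfl replicate 2, Crabp2 in Wt1_CKO replicate 2 and Cxcl12 in Wt1_flfl replicate 1. Foxc2, Twist1 and the meningeal transporter Slc6a13 were at or below 1.22 CPM in every library, with Foxc2 at 0 in Wt1_CKO replicate 1. The part of such cells in the collagen values was not tested.

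Collagen VI, which forms beaded filaments around mesenchymal cells, was rare. Col6a2 had 3.17 and 6.71 CPM in Wt1_flfl and 1.68 and 3.71 CPM in Wt1_CKO, a log2 difference of -0.87 in the first table and -0.83 in the second table, yet the groups overlapped and edgeR's adjusted p was 1. Col6a1 had 1.74 and 2.34 CPM in Wt1_flfl and 1.68 and 1.28 CPM in Wt1_CKO. The Wt1_CKO values of Col6a1 were below the Wt1_flfl values, by a margin of 1.74 against 1.68 CPM, from 28 and 30 counts. Col12a1, a chain that decorates collagen I fibres, had 6.35 and 9.11 CPM in Wt1_flfl and 9.49 and 4.82 CPM in Wt1_CKO, with opposite differences in the 2 tables.

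The main chains of basement membrane collagen overlapped between the genotypes. Col4a1 had 127 and 146 CPM in Wt1_flfl and 117 and 139 CPM in Wt1_CKO, and Col4a2 had 94.2 and 121 CPM in Wt1_flfl and 78.8 and 112 CPM in Wt1_CKO. Both were somewhat lower in Wt1_CKO within each table, with log2 differences of -0.13 and -0.07 for Col4a1 and -0.26 and -0.10 for Col4a2, and the samples numbered 2 were above the samples numbered 1 in both genotypes. The log2 difference between genotypes was -0.10 with an SE of 0.16 for Col4a1 and -0.18 with an SE of 0.31 for Col4a2.

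The chains Col4a5 and Col4a6, which also occur in embryonic basement membranes, were less abundant. Col4a5 had 16.4 and 15.6 CPM in Wt1_flfl and 18.1 and 15.3 CPM in Wt1_CKO. Col4a6 had 3.36 and 5.31 CPM in Wt1_flfl and 5.78 and 4.93 CPM in Wt1_CKO, with Wt1_flfl replicate 1 the lowest. Col4a4 had 22 to 40 counts per library and Col4a3, a chain known from the kidney glomerulus and lung, 4 to 9 counts.

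Collagen IV in most basement membranes is a trimer with more alpha 1 than alpha 2 chains. The ratio of Col4a1 to Col4a2 in CPM per kilobase was 1.2 and 1.07 in the Wt1_flfl libraries, against 1.31 and 1.09 in the Wt1_CKO libraries. The 2 libraries numbered 1 were above the 2 numbered 2, and the genotypes overlapped. Collagen I is built in the same way, and its ratio of Col1a1 to Col1a2 was 1.89 and 1.26 in Wt1_flfl and 1.37 and 0.876 in Wt1_CKO. Within each table this ratio was lower in Wt1_CKO, but the 95% counting intervals overlapped. They were 1.49 to 2.4 against 1.04 to 1.8 in the first table and 1.05 to 1.5 against 0.665 to 1.15 in the second table. The size of this ratio rests on the exon lengths used, 12426 bases for Col1a2 and 6563 for Col1a1. In counts, Col1a1 did not exceed Col1a2 in any library, with 143 of each in Wt1_flfl replicate 1. The ratio was therefore not read as a ratio of chains in the trimer. Comparisons of it between libraries do not depend on the lengths.

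Col18a1 and Col15a1 encode the multiplexins, basement membrane collagens that carry heparan or chondroitin sulfate, and Col18a1 is the source of endostatin. Col18a1 had 57 and 89.8 CPM in Wt1_flfl and 66.9 and 77.2 CPM in Wt1_CKO, so the Wt1_flfl libraries were the lowest and the highest. Col15a1 had 6.53 and 7.41 CPM in Wt1_flfl and 6.18 and 9.46 CPM in Wt1_CKO. The groups overlapped for both, with log2 differences of 0.01 (SE 0.34) for Col18a1, whose sign turned with DESeq2, and 0.13 (SE 0.32) for Col15a1.

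Among laminin alpha chains, Lama1, Lama5 and Lama4 were present and Lama2 and Lama3 low. Lama1, the alpha chain of the earliest embryonic basement membranes and of the pial surface, had 17.6 and 28.2 CPM in Wt1_flfl and 23.2 and 27.2 CPM in Wt1_CKO. Lama5 had 21.5 and 17.6 CPM in Wt1_flfl and 22 and 21.4 CPM in Wt1_CKO. Lama4, a chain of vessel walls, had 12 and 12.2 CPM in Wt1_flfl and 9.72 and 13.2 CPM in Wt1_CKO. All 3 overlapped between genotypes, with log2 differences of 0.17 (SE 0.36), 0.16 (SE 0.14) and -0.10 (SE 0.22). Lama2, known from muscle and from mature brain vessels, was read from 13 to 31 counts per library.

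The beta and gamma chains were dominated by Lamb2, Lamb1 and Lamc1. Lamc1, the gamma chain shared by most laminins, had 38.4 and 53.8 CPM in Wt1_flfl and 48 and 52.8 CPM in Wt1_CKO. Lamb2 had 58.9 and 69.5 CPM in Wt1_flfl and 60.6 and 76.8 CPM in Wt1_CKO. Lamb1 (ENSMUSG00000002900, chromosome 12, 31265234 to 31329644) had 30.2 and 22.6 CPM in Wt1_flfl and 33.5 and 22.3 CPM in Wt1_CKO. The log2 differences between genotypes were 0.15 (SE 0.25) for Lamc1, 0.09 (SE 0.21) for Lamb2 and 0.07 (SE 0.36) for Lamb1.

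Lamb1 and Lamb2 differed by sample number and in opposite directions. Lamb1 was higher and Lamb2 lower in both samples numbered 1 than in both numbered 2. The ratio of Lamb2 to Lamb1 in CPM per kilobase was 3.18 (95% counting interval 2.85 to 3.56) and 2.95 (2.66 to 3.26) in the Wt1_flfl and Wt1_CKO samples numbered 1. It was 5.02 (4.47 to 5.64) and 5.62 (5.01 to 6.31) in those numbered 2. Because both chains are measured in the same library, this ratio does not depend on the scaling of the libraries. The ratio of Lamb1 to Lamc1 showed the same split, with 0.655 and 0.582 in the samples numbered 1 and 0.35 and 0.352 in those numbered 2. Both ratios contain Lamb1, so they are not separate observations. This pattern was chosen after the values were seen and has no test, and the labels do not say what the number stands for.

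Other laminin chains were scarce and uneven. Lamc3, a gamma chain needed at the pial surface of the cortex, had 2.36 and 4.79 CPM in Wt1_flfl and 3.76 and 2.2 CPM in Wt1_CKO, with opposite differences in the 2 tables. Lamb3, a beta chain known from epithelia such as skin, had 7 to 30 counts per library. Lamb3 was lower in Wt1_CKO in each table, with log2 differences of -0.86 and -1.01, from 13 and 30 counts in Wt1_flfl against 7 and 14 in Wt1_CKO, and the groups overlapped. Markers of surface epithelium summed to 7.22 and 11.3 CPM in Wt1_flfl and 9.55 and 7.54 CPM in Wt1_CKO, with 8 of 14 listed in both tables.

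Nidogens link laminin to collagen IV. Nid1 had 24.4 and 29.7 CPM in Wt1_flfl and 23.6 and 25.3 CPM in Wt1_CKO, and Nid2 had 13.8 and 15.8 CPM in Wt1_flfl and 12.9 and 13.2 CPM in Wt1_CKO. For Nid2 both Wt1_CKO libraries were below both Wt1_flfl libraries, and for Nid1 the groups overlapped. The log2 differences of -0.14 (SE 0.15) for Nid1 and -0.18 (SE 0.10) for Nid2 had an edgeR adjusted p of 1 each. The ratio of Nid1 to Nid2 per kilobase was the steadiest of the ratios plotted, between 1.32 and 1.43 in the 4 libraries.

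**Figure D3:**
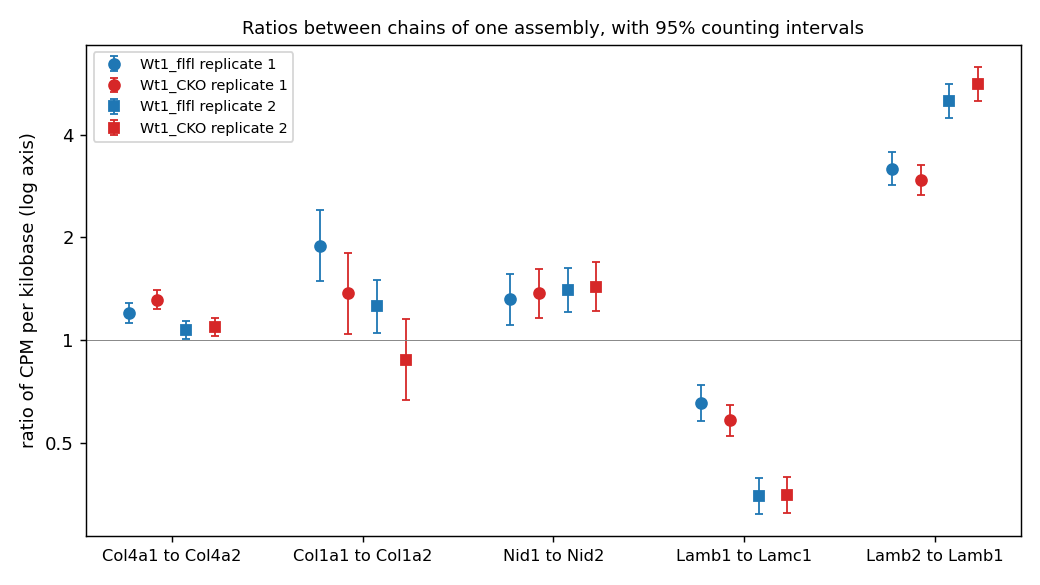
Ratio of CPM per kilobase between the genes named (vertical log axis) in each library, with 95% counting intervals as bars (blue Wt1_flfl, red Wt1_CKO, circles replicate 1, squares replicate 2). Lamb1 and Lamb2 both encode beta chains, and Nid1 and Nid2 both encode nidogens. Despite the title, these ratios are therefore not between chains of a single assembly. Circles and squares are apart for Lamb2 to Lamb1 (2.95 and 3.18 against 5.02 and 5.62) and for Lamb1 to Lamc1, while Nid1 to Nid2 is level across libraries.

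Chains known from cartilage were abundant in all 4 libraries. Col2a1 (ENSMUSG00000022483, chromosome 15, 97975602 to 98004695), the main collagen of cartilage, had 138 and 163 CPM in Wt1_flfl and 144 and 143 CPM in Wt1_CKO. Col11a1, which forms fibrils with it, had 24.5 and 22.2 CPM in Wt1_flfl and 27.2 and 25.1 CPM in Wt1_CKO, higher in both Wt1_CKO libraries by a log2 difference of 0.16 (SE 0.09) that did not pass. Col11a2 had 27.2 and 31.6 CPM in Wt1_flfl and 25.7 and 30.3 CPM in Wt1_CKO.

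Collagen IX sits on the surface of collagen II fibrils and is a trimer of the products of Col9a1, Col9a2 and Col9a3. Col9a3 had 30 and 27.6 CPM in Wt1_flfl and 26.3 and 28.7 CPM in Wt1_CKO, Col9a2 had 5.23 and 8.7 CPM in Wt1_flfl and 6.29 and 7.08 CPM in Wt1_CKO, and Col9a1 had 20 to 26 counts per library. Per kilobase Col9a3 exceeded Col9a1 by 24.4 to 32.6 times and Col9a2 by 2.54 to 4.61 times, so the 3 chains were not expressed evenly. Cartilage and bone markers were low beside these values. They summed to 3.79 and 3.91 CPM in Wt1_flfl and 3.09 and 3.31 CPM in Wt1_CKO, with 9 of 16 listed in both tables.

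Of the remaining chains, Col22a1, a collagen of tissue junctions, had 24.4 and 34 CPM in Wt1_flfl and 26.6 and 26 CPM in Wt1_CKO. Col26a1 had 10.8 and 13.9 CPM in Wt1_flfl and 10.3 and 12.1 CPM in Wt1_CKO. Col7a1, the anchoring fibril collagen of skin, had 4.85 and 6.01 CPM in Wt1_flfl and 5.95 and 6.21 CPM in Wt1_CKO. The groups overlapped for all 3. Of the transmembrane collagens, Col25a1, made by neurons, had 6.16 and 5.6 CPM in Wt1_flfl and 5.39 and 4.99 CPM in Wt1_CKO, both lower, with a log2 difference of -0.18 (SE 0.09). Col23a1 had 2.68 and 4.26 CPM in Wt1_flfl and 3.71 and 1.97 CPM in Wt1_CKO, and Col13a1 and Col17a1 had 0 to 6 counts per library.

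The 2 tables were then set side by side, as they compare different pairs of libraries. Within the first table, 26 of the 47 tested genes were higher and 21 lower in Wt1_CKO, with a median log2 difference of 0.04, where all genes tested had 0.01. Within the second table, 12 were higher and 35 lower, with a median of -0.20, where all genes tested had 0.00. Of all genes tested, 51.5% were higher and 48.5% lower in the first table, and 49.7% higher and 50.3% lower in the second table. Of the 47 genes, 20 were higher in the first table and lower in the second table, 6 the reverse, 15 lower in both and 6 higher in both.

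A difference of 2-fold or more in favour of Wt1_flfl was found in the second table for 6 of the 47 genes (12.8%), Col1a1, Col6a4, Col23a1, Lama3, Lamb3 and Lamc3, where 2.15% of all genes tested passed that fold, and in the first table for 0, where 1.5% did. In the other direction 2 genes passed in the first table, Col6a4 and Lama3, where 1.76% of all genes did, and 0 in the second table, where 1.31% did. Few reads lie behind these opposite differences: for Col6a4, counts of 4 and 22 in the Wt1_flfl libraries against 16 and 6 in the Wt1_CKO libraries, and for Lama3, counts of 8 and 17 against 20 and 4. These comparisons set 1 library against 1 library and have no replicate check. The authors' deposited tables mark 2 members as higher in Wt1_CKO in the first table, Col6a4 and Col19a1, and 6 as lower in the second table, Col1a1, Col6a4, Col8a2, Col23a1, Lama3 and Lamc3, where 3.2% and 3.19% of listed genes are marked in either direction. In the authors' deposited table for the samples numbered 2, Col1a1 has an adjusted p of 2.26e-14. In the authors' deposited table for those numbered 1 it has a log2 fold change of -0.73 and an adjusted p of 0.000745, and carries no mark. Every marked member has an authors' difference of more than 2-fold and an authors' adjusted p under 0.05. Members with such an adjusted p and a smaller fold carry no mark, among them Col1a2 and Col3a1 for the samples numbered 2.

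**Figure D4:**
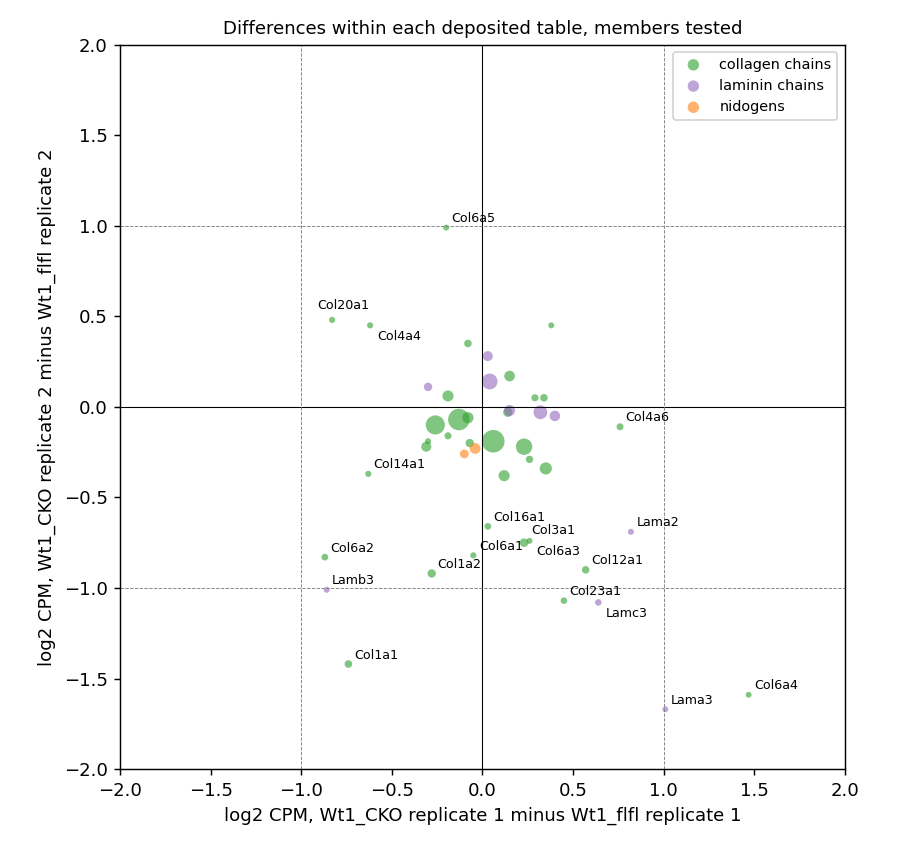
Log2 difference in CPM between Wt1_CKO and Wt1_flfl in the first table (horizontal axis) and in the second table (vertical axis) for 46 of the 47 genes tested, with larger points for more abundant genes and dashed lines at 2-fold. Abundant genes lie near the centre, 34 points lie below the horizontal zero line, and Col1a1, Lamb3 and Col6a2 are the points farthest toward lower values in both tables.

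Genes that build, bind or accompany these proteins were compared in the same fit. Of 85 tested, 0 passed edgeR's adjusted p of 0.05, with 1 at an unadjusted p under 0.05. Over all genes tested, 0.00628% passed the adjusted and 1.56% the unadjusted edgeR threshold. DESeq2 called 0 of the 85, with 0 at an unadjusted p under 0.05. Of 29 tested genes of collagen biosynthesis and cross-linking, 5 were higher in both Wt1_CKO libraries than in both Wt1_flfl libraries and 4 lower. Their median log2 difference was 0.06. The shares over all genes tested were 13.4% higher and 13.5% lower. The collagen chaperone Serpinh1 had 147 and 207 CPM in Wt1_flfl and 122 and 203 CPM in Wt1_CKO. The 3 genes of smallest p were Ppib, a prolyl isomerase of the endoplasmic reticulum, with a log2 difference of 0.25, the prolyl hydroxylase P3h2 with 1.13, from under 1.3 CPM in each library, and the protease Tll2 with 0.62. Lox, which cross-links collagen fibres, had 1.18 and 1.17 CPM in Wt1_flfl and 1.07 and 0.29 CPM in Wt1_CKO.

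Of 22 tested receptors and enzymes of receptor glycosylation, 0 were higher and 2 lower in both Wt1_CKO libraries, beside 13.4% and 13.5% of all genes tested. Their median log2 difference was 0.02. The collagen receptor Ddr1 had 300 and 352 CPM in Wt1_flfl and 305 and 322 CPM in Wt1_CKO, and Dag1, the laminin receptor dystroglycan, had 112 and 137 CPM in Wt1_flfl and 112 and 142 CPM in Wt1_CKO. The 3 of smallest p were the integrin chains Itgb4 and Itga10 and the glycosyltransferase Pomgnt1, with log2 differences of -0.58, 0.48 and -0.13. Of 19 other basement membrane genes, 2 were higher and 1 lower, beside the same 13.4% and 13.5% of all genes tested. Hspg2, which encodes perlecan, had 64.8 and 67.3 CPM in Wt1_flfl and 71.3 and 76.6 CPM in Wt1_CKO. Egflam, which encodes pikachurin, a ligand of dystroglycan, had a log2 difference of -0.87 at an unadjusted edgeR p of 0.0417 and an adjusted p of 1. Fras1 had a log2 difference of 0.27.

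Of 15 small leucine-rich proteoglycan and elastic fibre genes, 0 were higher and 0 lower in both Wt1_CKO libraries, beside 13.4% and 13.5% of all genes tested. The list had a median log2 difference of 0.20 in the first table and -0.23 in the second table. Lum, the proteoglycan lumican of collagen fibres, had 0.498 and 2.28 CPM in Wt1_flfl and 2.53 and 0.986 CPM in Wt1_CKO, and Dcn, decorin, had 1.12 and 1.58 CPM in Wt1_flfl and 2.7 and 0.638 CPM in Wt1_CKO. Both were higher in Wt1_CKO in the first table and lower in the second table, with the same 2 libraries highest as for Col6a4, Col12a1 and Lamc3, though Lum and Dcn, like Serpinh1, Lox, Ddr1 and Dag1, were chosen after their values were seen. By the smallest p this list gave Emilin1, Mfap2 and Mfap4, with log2 differences of -0.28, -0.12 and 0.11.

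Markers of the cells that could supply these transcripts were read in the same libraries. All 20 endothelial markers were listed in both tables, and they summed to 337 and 353 CPM in Wt1_flfl and 308 and 336 CPM in Wt1_CKO, none passing edgeR's test. Pericyte and mural markers, 14 of 15 listed, summed to 216 and 207 CPM in Wt1_flfl and 214 and 197 CPM in Wt1_CKO, of which Notch3 made up 102 to 121 CPM per library. Among them, Vtn had 11.6 and 11.3 CPM in Wt1_flfl and 8.42 and 7.25 CPM in Wt1_CKO, a log2 difference of -0.54 at an unadjusted edgeR p of 0.033 and an adjusted p of 1, and the part of mural cells in the collagen values was not tested. Choroid plexus markers, 12 of 13 listed, summed to 26.8 and 58.6 CPM in Wt1_flfl and 70.2 and 34.1 CPM in Wt1_CKO, with opposite differences in the 2 tables. Of the sums, Ttr made up 40.3 CPM in Wt1_CKO replicate 1 and Otx2 22.4 CPM in Wt1_flfl replicate 1. Clic6, a choroid plexus channel gene, had 0.0622 and 3.62 CPM in Wt1_flfl and 3.31 and 0.406 CPM in Wt1_CKO. Otx2 had 22.4 and 31.4 CPM in Wt1_flfl and 15.8 and 24 CPM in Wt1_CKO. It was lower in Wt1_CKO in each table, as were Aqp1 and Calml4, so the markers did not move together. The sum, Ttr and Clic6 were higher in Wt1_CKO replicate 1 and Wt1_flfl replicate 2 than in the other libraries. These were also the 2 higher libraries for Col12a1, Col6a4, Lama3 and Lamc3, and the part of choroid plexus in those values was not tested.

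Skeletal muscle markers, 7 of 13 listed, summed to 5.79 and 4.9 CPM in Wt1_flfl and 2.3 and 4.06 CPM in Wt1_CKO. Microglia and macrophage markers, 12 of 12 listed, summed to 43.4 and 41 CPM in Wt1_flfl and 44.5 and 37.5 CPM in Wt1_CKO. Neural crest and glial markers, 8 of 10 listed, summed to 105 and 102 CPM in Wt1_flfl and 116 and 112 CPM in Wt1_CKO. Erythroid markers, 9 of 10 listed, summed to 18.4 and 48 CPM in Wt1_flfl and 15.9 and 55.1 CPM in Wt1_CKO, higher in both samples numbered 2. Neural markers of the brain, 17 of 17 listed, summed to 8390 and 8180 CPM in Wt1_flfl and 8110 and 8100 CPM in Wt1_CKO, so markers of the labelled tissue were present. Vessel and mural markers were thus present, markers of meninges and mesenchyme ranged, Nnat and Zic1 aside, from 0 to 66.6 CPM, and several leading members, such as Col2a1 and Col9a3, are not known chiefly from either tissue, so the genes are described here by family and not as meningeal or vascular.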

How the data were processed

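RNA-seq was analysed from 4 mouse brain samples, 2 Wt1_flfl and 2 Wt1_CKO, grouped by the labels. Per the submitters' processing notes, Bowtie2 2.2.3, TopHat2 2.0.12 and HTSeq 0.6.0 were used with build mm9. The deposited positions were checked against GENCODE vM21 on GRCm38, where 92.1% of the gene IDs found, and 54 of 56 members, had the same position, so positions are given as GRCm38. Per the file headers, each deposited table gives raw counts by Ensembl gene ID, in whole numbers, for 1 library of each genotype. The deposited CPM values, fold ratios, log2 fold changes and p-values set the Wt1_CKO library of a table against its Wt1_flfl library; which test made them is not given in the sources used here. Of these the text prints the authors' marks and, for Col1a1, their adjusted p of each table and a log2 fold change.

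For the 19500 genes that both tables hold, the counts entered edgeR 4.0.16 (R 4.3.3), with filterByExpr at a minimum count of 10, TMM scaling, a quasi-likelihood F test on genotype alone and Benjamini-Hochberg adjustment over all genes tested. The script was tested on simulated counts first. Log2 differences use a prior count of 2, and the SE comes from the SDs of the 2 groups (n = 2 each), so it is itself imprecise. Per-kilobase values divide by the union of exons in GENCODE vM21. Counting intervals are exact binomial at 95%. The alternatives were a replicate block, leaving out each library, 2 other scalings, DESeq2 1.42.0, 2 other filters, genes of either table, and other prior counts. The members and gene lists were chosen with earlier results of these data known. Values are printed for up to 4 members per role by mean CPM, for members past the threshold or with a log2 difference of at least 0.58 in size and the same sign in both tables at a mean of 1 CPM or more, and for 3 genes per companion list by the smallest p. Other genes with values in the text, among them Col6a4, Lama3, Lum, Dcn and Clic6, and the chain ratios were chosen after their values were seen. Wt1 itself, and the values of 1 member, are not reported here.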

Additional observations from a re-analysis of the deposited data

How the results depend on the processing

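The sample numbers are shared by the genotypes, but no label ties them to a litter, batch or day, and with 2 pairs the data cannot show a pairing (correlation of deviations of same-numbered samples 0.28 across 15933 genes). With the replicate block, edgeR called 42 genes instead of 1 and 1 member instead of 0, Col1a1, at a log2 difference of -1.08 and an adjusted p of 0.0425, and it changed no other call of a member or companion gene. DESeq2 called 5 genes and 0 members. Leaving out 1 library gave 3 to 73 calls over all genes (for the Wt1_flfl libraries 73 without the sample numbered 1 and 29 without that numbered 2, for the Wt1_CKO libraries 3 and 7), and 0 members and 0 companion genes each time. The lone sample left in a group is then assumed to vary like the other group. The other scalings and filters kept 1 call over all genes and 0 among members. Members 2-fold higher in the first table numbered 1 instead of 2 with a prior count of 5, and those in the second table numbered 1 instead of 0 with a prior count of 0.5 or with listed library totals. Those 2-fold lower in the second table numbered 5 instead of 6 with a prior count of 5 or with listed library totals. With listed library totals, both Wt1_CKO libraries lay above both Wt1_flfl libraries for 4 members instead of 3. With a library left out, the direction turned for 24 of 49 named genes, none of them called. Their log2 differences ran from -0.19 to 0.05 for Col11a2, -0.65 to 0.32 for Col12a1, -0.17 to 0.44 for Col15a1, -0.32 to 0.33 for Col18a1, -0.37 to 0.11 for Col22a1, -0.74 to 0.13 for Col23a1, -0.32 to 0.04 for Col26a1, -0.18 to 0.06 for Col2a1, -0.59 to 0.08 for Col3a1, -0.22 to 0.02 for Col4a1, -0.43 to 0.08 for Col4a2, -0.07 to 0.18 for Col4a5, -1.03 to 0.91 for Col6a4, -0.38 to 0.35 for Col9a2, -0.16 to 0.51 for Lama1, -0.48 to 0.62 for Lama2, -1.24 to 0.59 for Lama3, -0.31 to 0.12 for Lama4, -0.23 to 0.36 for Lamb1, -0.08 to 0.26 for Lamb2, -0.10 to 0.39 for Lamc1, -0.71 to 0.27 for Lamc3, -0.30 to 0.05 for Mfap2 and -0.15 to 0.37 for Mfap4. Col18a1 was at -0.03 with DESeq2. Col5a2, at 0.00 with all libraries, is not counted among the 24, though it ran from -0.33 to 0.34 with a library left out. The causes were not tested. Depth limits the rare members: at 28 and 30 counts, the ratio of Col6a1 between the libraries numbered 1 had a counting interval of 0.558 to 1.68.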
